A study of Mus musculus with 9 samples.

Results

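Complement components are secreted by macrophages as well as by the liver, and 8 genes that encode them (C1qa, C1qb, C1qc, C2, C3, C4b, Cfb and Cfp) were followed here across peritoneal macrophages (PMs) in which SHP2, the tyrosine phosphatase encoded by Ptpn11, was deleted or inhibited. The 8 genes were taken by name, and each was found once among the 54059 genes of the expression table. RNA sequencing covered 9 libraries in 3 groups of 3. The WT group held PMs of wild-type C57BL/6 mice. The M-Shp2-/- group (KO, labelled SHP2lyz2-/-) held PMs of mice in which Lyz2-cre deletes the floxed Shp2 gene, so that deletion is limited to cells with an active Lyz2 promoter, such as monocytes, mature macrophages and granulocytes. The SHP099 group held wild-type PMs exposed to SHP099, an allosteric SHP2 inhibitor. The mice were 8 weeks old by the labels, and adherent cells were taken by lavage 3 days after an injection of starch broth, which draws monocyte-derived macrophages into the peritoneum. The PMs received the TLR7 agonist imiquimod (IMQ) for 4 h, which the methods state and the labels do not. A figure legend gives 10 µg/ml for wild-type PMs with or without SHP099, the inhibitor being added at 10 µM 2 h earlier. The IMQ dose of the M-Shp2-/- libraries is not given in the sources used here and is taken to be the same. No unstimulated PMs were among the 9 libraries, so the response to IMQ itself was not measured. Nothing in the labels says that the 3 libraries of a group came from separate animals, so p-values measure only the spread between these samples, which may be technical.

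Complement is a cascade of plasma proteins that coats targets and recruits phagocytes. The classical pathway starts when C1q, a hexamer built from the chains encoded by C1qa, C1qb and C1qc, binds a target and the attached proteases cleave C4 (C4b in the mouse genome) and C2, which together form a C3 convertase. The alternative pathway forms its own convertase from C3 and factor B (Cfb), which properdin (Cfp) stabilizes. Both converge on C3, the source of the opsonin C3b and the peptide C3a. Macrophages are a main source of C1q in the body, and properdin is made by myeloid cells.

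The recovered depth ranged from 39841813 to 50979545 reads per library. Values are given as FPKM, fragments per kilobase of gene length scaled to the mapped total, and levels of different genes are compared only on this per-length scale. Ptpn11 checked the labels: it stood at 45.8, 44.0 and 40.0 FPKM in WT PMs, at 18.6, 17.8 and 18.9 FPKM in M-Shp2-/- PMs, and at 43.0, 42.1 and 39.6 FPKM in SHP099 PMs. All 3 M-Shp2-/- libraries were below all others, with a log2 fold change of -1.19 against WT (adjusted p = 0.0168 from limma, which fits all genes and adjusts over them).

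Several libraries stood apart from their group. Over the 11450 genes with a mean of at least 1 FPKM, M-Shp2-/- replicate 3 correlated with M-Shp2-/- replicates 1 and 2 at 0.967 and 0.954, but with SHP099 replicate 1 at 0.984. M-Shp2-/- replicates 1 and 2 correlated with each other at 0.992. WT replicate 1 was closest to M-Shp2-/- replicate 2 (0.988), and WT replicate 3 was closest to SHP099 replicate 3 (0.978). These correlations are across genes, which are not independent replicates. The values below are therefore given with and without the libraries that changed them.

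Macrophage markers were abundant in every library. All 8 markers averaged at least 1 FPKM. Their sum was 10400, 13400 and 11200 FPKM in WT, 7600, 7470 and 8410 FPKM in M-Shp2-/-, and 11800, 13000 and 13700 FPKM in SHP099 PMs, so that all M-Shp2-/- libraries were below all others. Most of the sum was Lyz2, the gene that drives the cre, at 7440, 10200 and 7950 FPKM in WT, 4860, 4740 and 5410 FPKM in M-Shp2-/-, and 9350, 10300 and 10700 FPKM in SHP099 PMs. Its log2 fold change in M-Shp2-/- against WT was -0.76 (adjusted p = 0.388). The separation of the sums rested on Lyz2: the other 7 markers, summed apart after seeing the data, gave 2980, 3190 and 3240 FPKM in WT, 2730, 2730 and 3010 FPKM in M-Shp2-/-, and 2430, 2730 and 3020 FPKM in SHP099 PMs, so that M-Shp2-/- overlapped both other groups. Against WT the M-Shp2-/- means of Csf1r (0.44, adjusted p = 0.592) and Cd68 (0.13, adjusted p = 0.675) were higher and those of the other 6 markers lower, none passing. Cd68 ranged from 1211 to 1740 FPKM, the highest level being in M-Shp2-/- replicate 2. Of the 7 markers of resident large PMs, Gata6 reached at most 2.97 FPKM and the list summed to between 27.0 and 60.1 FPKM. The 5 markers of monocyte-derived PMs, led by H2-Ab1, summed to between 327 FPKM in M-Shp2-/- replicate 3 and 1660 FPKM in SHP099 replicate 3. Of the 8 neutrophil markers, Ly6g and Cxcr2 were at most 0.0362 and 0.0352 FPKM, but 3 others averaged at least 1 FPKM. These were S100a8 (34.54 to 95.41 FPKM), Mmp8 (2.805 to 10.38 FPKM) and Camp (2.916 to 4.949 FPKM). Fewer cells of a type and less RNA per cell cannot be told apart in these bulk libraries.

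The 3 chains of C1q were expressed at high levels, with ranges that overlapped between the groups. C1qa (ENSMUSG00000036887), C1qb (ENSMUSG00000036905) and C1qc (ENSMUSG00000036896) lie side by side on the minus strand of chr4:136880129-136898803 (GRCm38), a stretch of 18.7 kb. C1qa measured 93.9, 150.6 and 239 FPKM in WT PMs, 49.3, 42.3 and 129 FPKM in M-Shp2-/- PMs, and 71.7, 97.2 and 127 FPKM in SHP099 PMs, in the order of replicates 1 to 3. The groups overlapped: M-Shp2-/- replicates 1 and 2 were below every WT and SHP099 library, while M-Shp2-/- replicate 3 was not. C1qb measured 188, 249.7 and 434.7 FPKM in WT, 95.1, 88.5 and 249.5 FPKM in M-Shp2-/-, and 126.9, 202.4 and 235.2 FPKM in SHP099 PMs. C1qc measured 123.2, 181 and 338.6 FPKM in WT, 66.5, 58.0 and 176.7 FPKM in M-Shp2-/-, and 85.3, 140.5 and 160.9 FPKM in SHP099 PMs. For all 3 chains WT replicate 3 was the highest library and M-Shp2-/- replicate 2 the lowest.

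**Figure D1:**
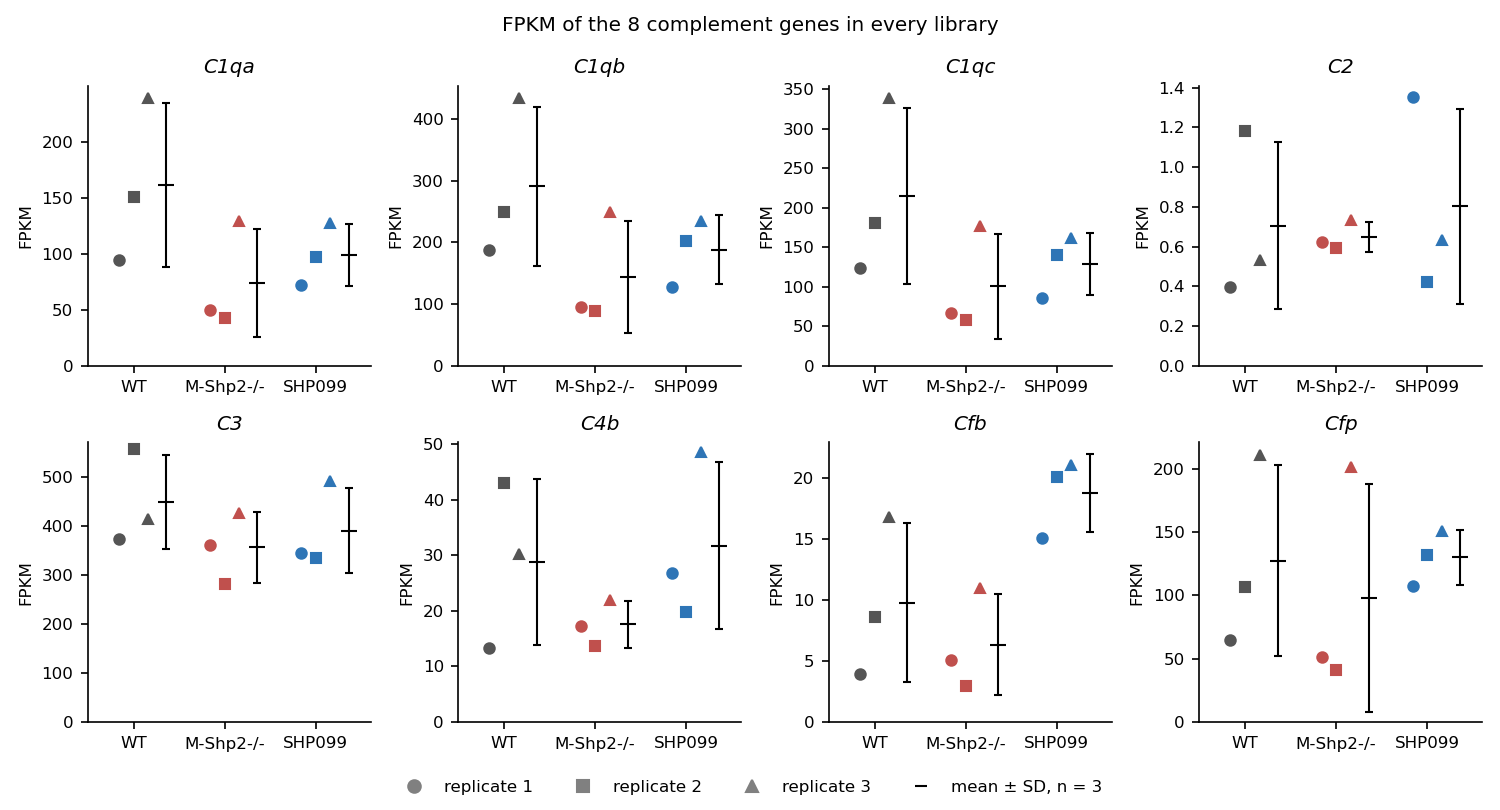
FPKM of each of the 8 complement genes (y axis, linear, from 0) in every library of the WT, M-Shp2-/- and SHP099 groups (x axis), with the replicate shown by the marker and the mean ± SD (n = 3) in black. M-Shp2-/- replicate 3 lies above replicates 1 and 2 for all 8 genes, and Cfb is the gene whose SHP099 libraries all exceed the M-Shp2-/- libraries.

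The chains kept nearly the same proportions while their sum varied 5.36-fold, from 188.9 FPKM in M-Shp2-/- replicate 2 to 1012 FPKM in WT replicate 3. C1qa made up 22.1% to 25.9% of the summed FPKM over the 9 libraries, C1qb 42.9% to 46.9% and C1qc 30.0% to 33.4%. The share of C1qb was 44.1% ± 2.0 (SD, n = 3) in WT, 45.6% ± 1.07 in M-Shp2-/- and 45.2% ± 0.681 in SHP099 PMs. Differences in the share of a chain between groups ran from -1.22 to 1.53 percentage points, both in M-Shp2-/- against WT, for C1qa and C1qb. None of the 9 differences passed a two-sided exact permutation test (adjusted p = 0.9 for each), which with 3 against 3 libraries cannot give a p below 0.1. The chains share no stretch of 50 bases between their transcripts, so reads could be told apart at that length.

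**Figure D2:**
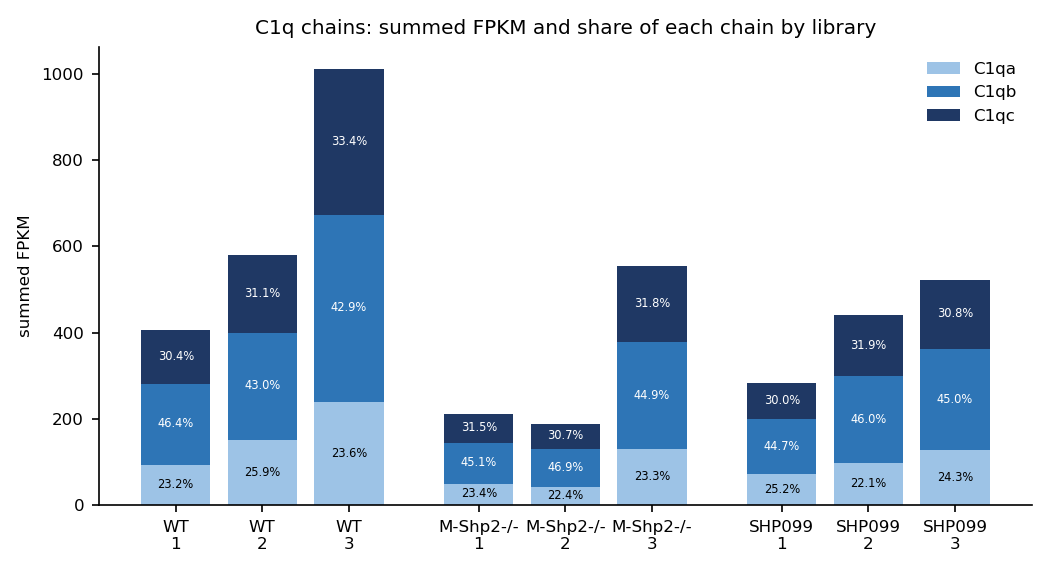
Summed FPKM of C1qa, C1qb and C1qc in each library (bars from 0, stacked by chain), with the share of each chain printed in its segment. The sum runs from 188.9 to 1012 FPKM while the share of C1qb lies between 42.9% and 46.9%.

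Since the C1q chains moved together, the bases before the start sites of C1qb and C1qc are shown (RefSeq, GRCm38.p6). Promoter windows were at hand for 4 of the 8 genes, namely C1qb, C1qc, C3 and Cfp, while C1qa, C2, C4b and Cfb were not in the table. For C1qb all 250 bases before the RefSeq start are printed, chr4:136886201-136886450. For C1qc the 99 bases at chr4:136893066-136893164 are printed, which lie outside the gene as GENCODE annotates it. Both are on the minus strand, 5′ to 3′, and capitals mark GAGGAA, the core bound by PU.1, on either strand.
C1qb: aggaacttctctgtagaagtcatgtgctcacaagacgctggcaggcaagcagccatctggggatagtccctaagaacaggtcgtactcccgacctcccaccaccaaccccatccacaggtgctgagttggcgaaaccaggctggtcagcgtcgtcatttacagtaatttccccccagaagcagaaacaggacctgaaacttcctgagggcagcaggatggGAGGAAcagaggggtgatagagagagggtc
C1qc: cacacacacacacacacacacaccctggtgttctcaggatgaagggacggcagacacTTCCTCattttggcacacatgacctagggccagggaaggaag
The C1qb match lay 30 to 25 bases before the RefSeq start, and the C1qc match, on the opposite strand, 193 to 188 bases before it. GAGGAA was present in 23.3% of the 32851 promoter windows of the same length. The C1qc window also held a match to the NF-kB motif, 41 to 32 bases before the RefSeq start and inside the gene as GENCODE annotates it, and 7.25% of windows held one. In the windows of C3 and Cfp none of the 6 motifs was found. The other motifs, absent from all 4 windows, were GAAANNGAA (the core of the interferon-stimulated response element, in 7.13% of all windows), TTCNNNGAA (gamma-activated sequence, 7.02%), TGCTGAC (the core of the Maf recognition element, 3.81%) and TATAAA (12.4%). A match describes letters in a window and was not tested as a binding site.

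C4b and C2, whose products build the classical convertase, were expressed at lower levels. C4b (ENSMUSG00000073418, chr17:34728380-34743882) measured 13.3, 43.1 and 30.2 FPKM in WT, 17.2, 13.6 and 21.97 FPKM in M-Shp2-/-, and 26.8, 19.8 and 48.6 FPKM in SHP099 PMs. The groups overlapped, with the lowest value in WT replicate 1 and the highest in SHP099 replicate 3. C4b shares 34.6% of its 50-base stretches with its paralog C4a, which stood at 0.261 to 0.668 FPKM, so that reads of the shared parts cannot be assigned with certainty. C2 (ENSMUSG00000024371, chr17:34862604-34898265) was the only one of the 8 genes below a mean of 1 FPKM and was therefore not tested, leaving 7. It ranged from 0.396 to 1.35 FPKM, resting on 20 to 72 reads per library, with 0.704 ± 0.421 FPKM in WT, 0.649 ± 0.0762 FPKM in M-Shp2-/- and 0.802 ± 0.49 FPKM in SHP099 PMs (SD, n = 3). Its 3 WT libraries held 21, 72 and 27 reads. Without the filter the log2 fold changes of C2 were -0.021 in M-Shp2-/- against WT (adjusted p = 1), 0.075 in SHP099 against WT (adjusted p = 0.954) and -0.096 in M-Shp2-/- against SHP099 (adjusted p = 0.893). A count of 0 reads for C2 would have allowed up to 0.0493 to 0.0631 FPKM (3 reads), depending on the library and for counting error only.

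C3 was the most abundant of the 8 genes on the deposited scale and varied least. C3 (ENSMUSG00000024164, chr17:57203970-57228136) averaged 449.3 ± 96.5 FPKM in WT, 357.2 ± 72.3 FPKM in M-Shp2-/- and 391.3 ± 87.5 FPKM in SHP099 PMs (SD, n = 3). Its libraries ranged from 282.8 FPKM in M-Shp2-/- replicate 2 to 558.2 FPKM in WT replicate 2, and the 3 groups overlapped. With its mean over the 9 libraries C3 was among the top 2.27% of the 11450 genes.

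The alternative pathway was represented by Cfb and Cfp besides C3. Cfb (ENSMUSG00000090231, chr17:34856374-34862518), the protease of the alternative convertase, measured 3.92, 8.60 and 16.8 FPKM in WT, 5.07, 2.95 and 10.9 FPKM in M-Shp2-/-, and 15.1, 20.02 and 21.1 FPKM in SHP099 PMs. All SHP099 libraries were above all M-Shp2-/- libraries, and WT replicate 3 lay within the SHP099 range. Cfp (ENSMUSG00000001128, chrX:20925454-20931555) measured 65.0, 106.8 and 210.8 FPKM in WT, 51.0, 41.2 and 201.3 FPKM in M-Shp2-/-, and 107.7, 131.6 and 150.5 FPKM in SHP099 PMs. Here replicate 3 of WT and of M-Shp2-/- stood far above their other libraries, and all groups overlapped.

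C2 and Cfb are neighbours 85 bases apart, and the levels of both are uncertain for a reason of annotation. The read-through gene Gm20547 covers 42.8% of the exonic bases of C2 and 79.5% of those of Cfb on the same strand, and it was listed at 0 in all 9 libraries. Whether reads falling on more than 1 gene were dropped is not given in the sources used here, and an effect on the levels was not tested. Zbtb12, on the opposite strand, shares 161 exonic bases with C2 and stood at 4.62 to 8.72 FPKM.

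On the deposited scale the order of the levels in WT PMs was C3, C1qb, C1qc, C1qa, Cfp, C4b, Cfb and C2. The ranges of neighbours in this order overlapped except for Cfp above C4b and Cfb above C2. In M-Shp2-/- and SHP099 PMs C3 was separated from C1qb as well. Cfp took place 4 in M-Shp2-/- PMs and place 3 in SHP099 PMs, in both cases overlapping its neighbours. The place of C3 depended on the gene length used. The deposited FPKM gave whole reads with the mean length of a gene's transcripts, which for C3 is 1667 bases against 5136 bases for its longest transcript. Per longest transcript, a scale chosen after seeing the data, C3 averaged 145.8 ± 31.3 in WT PMs and took place 4, behind C1qb (290.8), C1qc (191.3) and C1qa (161.2), with overlapping ranges.

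The comparison of M-Shp2-/- with WT PMs asks what loss of SHP2 in myeloid cells does to these transcripts after IMQ. All 7 genes tested had lower mean levels in M-Shp2-/- PMs, and none passed an adjusted p of 0.05. Of all 11450 genes 2586 had a negative log2 fold change and 8864 a positive one, without further scaling. Values are differences of log2(FPKM + 1), which understate the change of genes at low levels. The log2 fold change of C1qa was -1.20 (95% interval -2.38 to -0.02, adjusted p = 0.469 from limma, unadjusted p = 0.0465). C1qc and C1qb followed with -1.15 (interval -2.37 to 0.08) and -1.09 (interval -2.20 to 0.03), both with an adjusted p of 0.478. Cfp stood at -0.59, C4b at -0.56, Cfb at -0.52 and C3 at -0.33. By limma 10 of 11450 genes (0.0873%) passed the adjusted threshold, so the count of 0 among 7 says little about these genes. At an unadjusted p under 0.05 there was 1 of the 7 genes, C1qa, against 10.5% of all genes. In no gene of the 7 were the groups free of overlap, against 19.1% of all genes. That share pools both directions: 1835 of the 11450 genes were higher without overlap and only 352 lower. The median log2 fold change was -0.588 over the 7 genes and 0.147 over all genes. Median-of-ratios scaling moved the latter to -0.0122, and with it C1qa to -1.38, C1qb to -1.26 and C1qc to -1.32, the direction of all 7 genes being kept. Relative to the median of all genes the chains were thus lower under both scalings, again without passing (adjusted p = 0.615 for each chain). Without M-Shp2-/- replicate 3 the log2 fold changes were -1.70, -1.56 and -1.64 for C1qa, C1qb and C1qc and -1.29 for Cfp, with an adjusted p of 0.223 for the chains and 0.238 for Cfp. Leaving out WT replicate 3, the highest WT library for the chains, Cfb and Cfp, brought the differences closer to 0: -0.87, -0.75 and -0.75 for C1qa, C1qb and C1qc, -0.14 for Cfp and -0.060 for Cfb. Over the alternatives C4b ranged from -1.02 to -0.21 and C3 from -0.51 to -0.16. The adjusted p ranged from 0.214 to 0.89 for each chain, from 0.238 to 0.989 for Cfp, from 0.328 to 0.991 for Cfb, from 0.366 to 0.892 for C4b and from 0.259 to 0.89 for C3. Lyz2, the gene that drives the cre, was lower in all M-Shp2-/- libraries as well. An effect of the cre on Lyz2 itself cannot be told apart from macrophage content here and was not tested. The sum of the other macrophage markers overlapped between the groups, and the part of macrophage content in the C1q levels was not tested. The count of all genes passing was at most 8 without any 1 library and 1 without WT replicate 2, M-Shp2-/- replicate 1 or M-Shp2-/- replicate 2.

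SHP099 against WT PMs addresses inhibition of the same phosphatase. The C1q chains again had lower means, and Cfb a higher one, without passing the threshold. The log2 fold change of C1qa was -0.64 (interval -1.45 to 0.17, adjusted p = 0.288), that of C1qb -0.58 (adjusted p = 0.32) and that of C1qc -0.65 (adjusted p = 0.327). The size depended on the WT libraries: the chains stood at -0.31, -0.25 and -0.26 without WT replicate 3 and at -0.98, -0.85 and -0.99 without WT replicate 1. With 1 library left out the adjusted p ranged from 0.118 to 0.602 for C1qa, from 0.184 to 0.673 for C1qb and from 0.163 to 0.672 for C1qc. The log2 fold change of Cfb was 1.05 (interval 0.05 to 2.05, unadjusted p = 0.0421, adjusted p = 0.17). C3 stood at -0.20, C4b at 0.18 and Cfp at 0.18. Over the alternatives C3 ranged from -0.38 to -0.034, with an adjusted p from 0.271 to 0.924. The sign of C4b turned without WT replicate 1 (-0.28) or SHP099 replicate 3 (-0.16), and that of Cfp without WT replicate 1 (-0.22). Of the 7 genes 0 passed, against 797 of all genes (6.96%), made up of 4.55% of all genes as higher and 2.41% as lower. At an unadjusted p under 0.05 the count was 1, Cfb, against 26.7% of all genes, and 0 of the 7 had groups without overlap, against 34.6%. The latter share was made up of 3189 genes higher and 775 lower. The median was -0.2 over the 7 genes and 0.127 over all genes, the latter moving to -0.00512 with median-of-ratios scaling, where Cfb stood at 0.91 (adjusted p = 0.331). WT replicate 3, the WT library with the highest Cfb, decided the call: without it Cfb reached a log2 fold change of 1.51 (adjusted p = 0.0317), where 7.05% of all genes passed as higher. Over the alternatives the adjusted p of Cfb ranged from 0.0317 to 0.416. The count of all genes passing depended on the libraries too, from 47 without SHP099 replicate 2 to 1273 without WT replicate 3, and with median-of-ratios scaling 511 passed, 172 of them higher in place of 521.

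**Figure D3:**
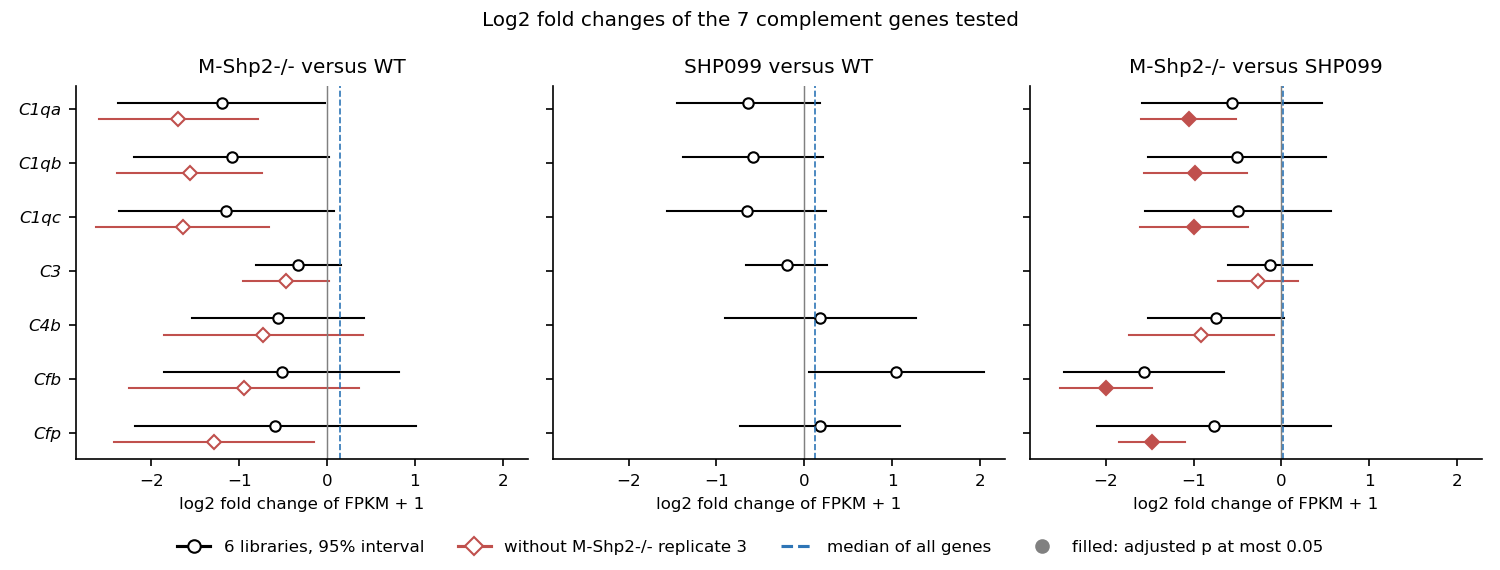
Log2 fold change of FPKM + 1 (x axis) of the 7 complement genes tested (y axis) in the 3 comparisons, with 95% intervals, for all 6 libraries (black circles) and without M-Shp2-/- replicate 3 (red diamonds). Filled symbols pass an adjusted p of 0.05, and the dashed line is the median of all 11450 genes. With 6 libraries no symbol is filled, and without M-Shp2-/- replicate 3 there are 5 filled symbols against SHP099.

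M-Shp2-/- was then set directly against SHP099 to test whether deletion and inhibition left different levels. Both comparisons above share the WT libraries, so only this test bears on their difference. Cfb was lower in all 3 M-Shp2-/- libraries than in all 3 SHP099 libraries, with a log2 fold change of -1.57 (interval -2.48 to -0.66, unadjusted p = 0.00497), but its adjusted p was 0.273. Cfb was the 1 gene of the 7 whose groups did not overlap in this direction, against 9.76% of all genes. It was also the 1 gene with an unadjusted p under 0.05, against 12.6% of all genes. Of the other 6 genes Cfp stood at -0.77, C4b at -0.74, C1qa at -0.56, C1qb at -0.50, C1qc at -0.49 and C3 at -0.13. The sign of C3 turned without M-Shp2-/- replicate 2 (0.029) or SHP099 replicate 3 (0.047). Without M-Shp2-/- replicate 2 C1qa, C1qb and C1qc stood at -0.26, -0.24 and -0.20 and Cfp at -0.34, and over the alternatives Cfb ranged from -2.00 to -1.12. Of the 7 genes 0 passed, against 8 of all genes (0.0699%).

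Leaving out M-Shp2-/- replicate 3 changed this comparison. Then 5 of the 7 genes passed as lower in M-Shp2-/- PMs, against 7.89% of all genes. Cfb stood at -2.00 (interval -2.52 to -1.47, adjusted p = 0.00361) and Cfp at -1.47 (interval -1.84 to -1.10, adjusted p = 0.00333). The chains followed with -1.06 for C1qa (adjusted p = 0.024), -0.98 for C1qb (adjusted p = 0.0382) and -0.99 for C1qc (adjusted p = 0.0416). C4b (-0.91, adjusted p = 0.111) and C3 (-0.27, adjusted p = 0.355) did not pass. In this setting 2277 of the 11450 genes passed, in place of 8, so the dependence on that library was shared by the whole table. Nothing in the labels sets M-Shp2-/- replicate 3 apart, and its Ptpn11 level was that of its group, so the values from 6 libraries are the main result. Over the alternatives the adjusted p of Cfb ranged from 0.00361 to 0.749, that of Cfp from 0.00333 to 0.922, and those of C1qa, C1qb and C1qc from 0.024, 0.0382 and 0.0416 to 0.925, 0.939 and 0.953. Cell markers differed between these groups too. With 6 libraries Lyz2, the gene that drives the cre in M-Shp2-/- mice, stood at -1.015 (adjusted p = 0.0555 from limma). The sum of the other macrophage markers overlapped. The marker sums of dendritic, mast, eosinophil and endothelial cells, given below, were lower in all SHP099 libraries. Their part in these differences was not tested.

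**Figure D4:**
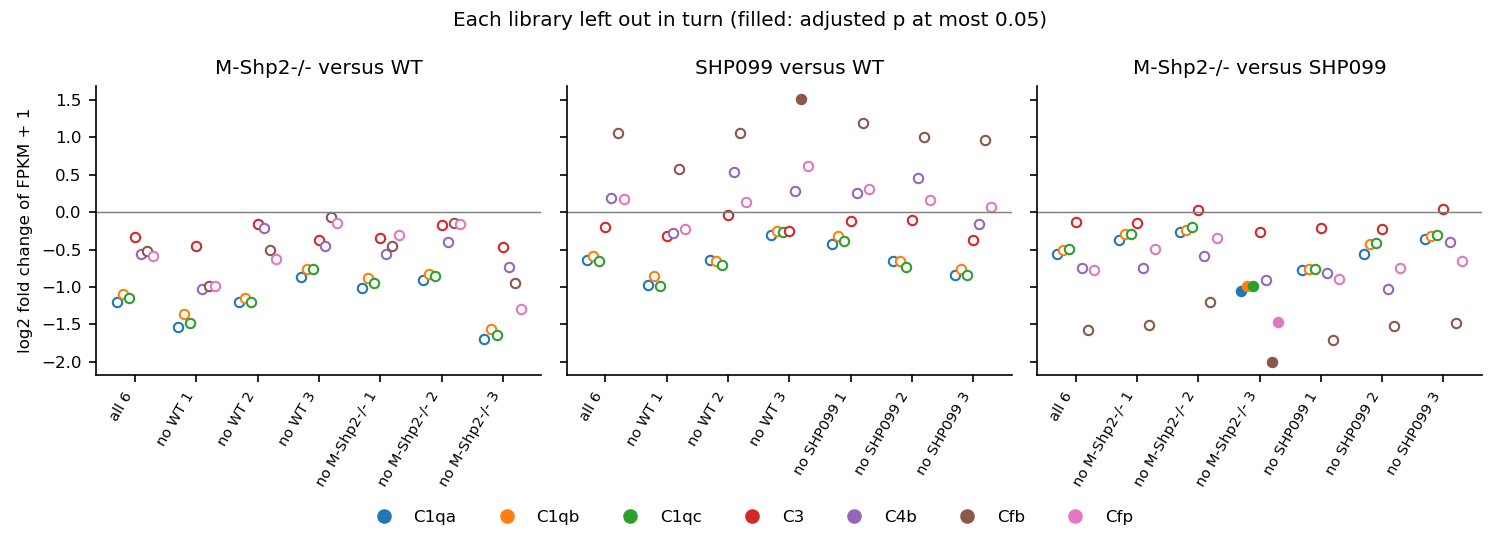
Log2 fold change of FPKM + 1 (y axis) of the 7 genes, coloured by gene, with all 6 libraries and with each library left out in turn (x axis), for the 3 comparisons. Filled points pass an adjusted p of 0.05: Cfb in SHP099 against WT without WT replicate 3, and Cfb, Cfp, C1qa, C1qb and C1qc in M-Shp2-/- against SHP099 without M-Shp2-/- replicate 3.

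With the stricter limits named in the study's methods, 0.005 for the adjusted p and 1 for the size of the log2 fold change, 0 of the 7 genes passed in each of the 3 comparisons. By the same rule 0.00873% of all genes passed in M-Shp2-/- against WT, 0.166% in SHP099 against WT and 0% in M-Shp2-/- against SHP099. By voom on the recovered reads 0 of the 7 genes passed in each comparison, and 1 in each had an unadjusted p under 0.05.

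Expression of the rest of the complement system differed by role. Of 52 other complement genes 19 (36.5%) averaged at least 1 FPKM, against 21.2% of all 54059 genes, and 11 (21.2%) were at 0 in every library, against 50.7%. All genes include noncoding ones, while the complement list is nearly all protein-coding, so these shares do not compare like with like. The pore-forming terminal pathway was nearly absent, with 1 of 7 genes tested (C8g) and the others at no more than 0.0855 FPKM. None of the 3 further alternative pathway genes was tested, and Cfd, the protease that activates factor B, reached at most 0.0503 FPKM. Of the 13 genes of classical and lectin initiation 3 were tested, among them the C1 protease genes C1ra and C1s1. Receptors were better represented, with 6 of 8 tested. Itgb2, the common beta chain of the complement receptors CR3 and CR4, averaged 1096 FPKM, and C5ar1, the receptor for C5a, 147.5 FPKM. The C1q-binding proteins Calr and Lrp1 averaged 710.7 and 642.1 FPKM.

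**Figure D5:**
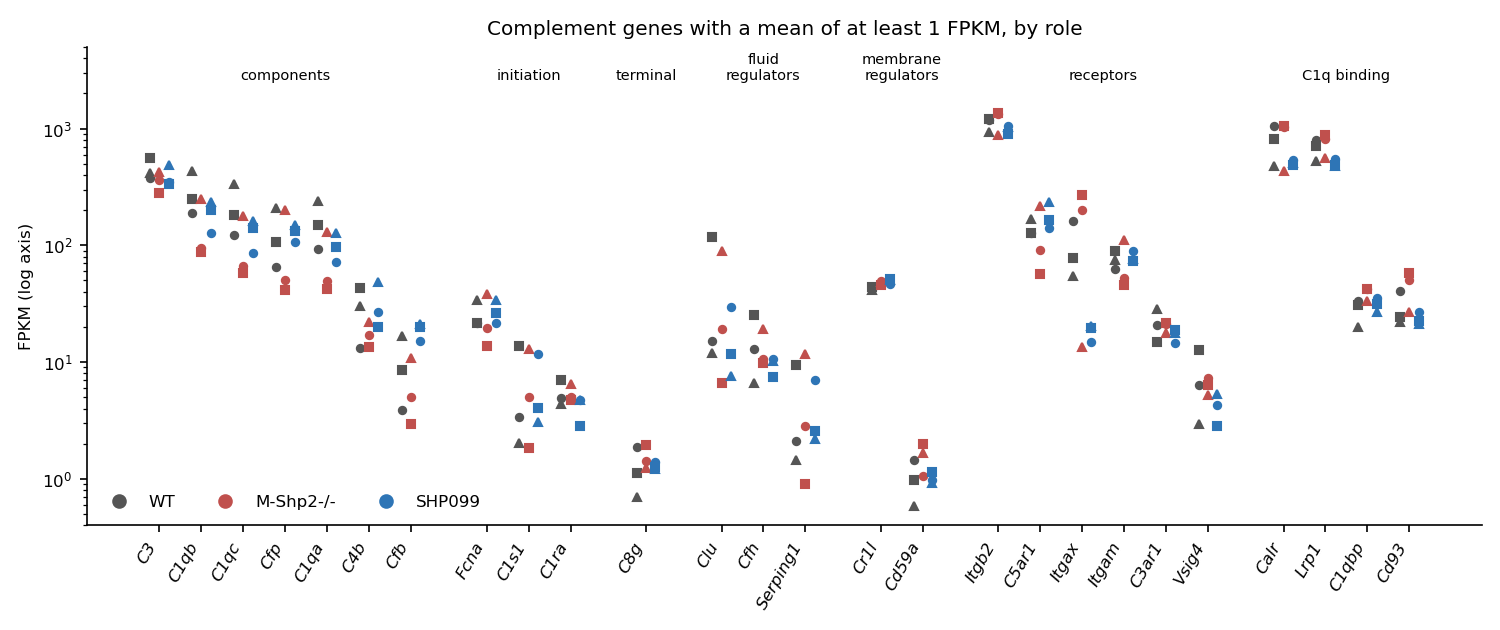
FPKM (y axis, log scale) of the 26 complement genes with a mean of at least 1 FPKM in each library, coloured by group and grouped by role, with replicates 1, 2 and 3 as circles, squares and triangles. Itgb2, Calr and Lrp1 are the most abundant, and Itgax is low in the SHP099 libraries and in M-Shp2-/- replicate 3.

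Itgax, the alpha chain of CR4 and a marker of dendritic cells, was the 1 gene of these 19 that passed in any comparison. It measured 162.3, 77.8 and 54.9 FPKM in WT, 199.6, 267.4 and 13.45 FPKM in M-Shp2-/-, and 14.9, 19.5 and 20.25 FPKM in SHP099 PMs. Every SHP099 library was below every WT library, and M-Shp2-/- replicate 3 was lower still. In SHP099 against WT PMs Itgax fell by 2.23 on the log2 scale (adjusted p = 0.0224), the 1 gene of the 19 passing, as lower, where 2.41% of all genes passed as lower. The call was lost without any 1 of the SHP099 replicates (adjusted p = 0.0917, 0.11 and 0.072 without replicates 1, 2 and 3), and over the alternatives the adjusted p ranged from 0.0118 to 0.184. Markers of dendritic cells were also lower in all SHP099 libraries than in all others: their sum was 6.14, 3.95 and 3.78 FPKM in WT, 7.4, 5.25 and 3.56 FPKM in M-Shp2-/-, and 1.5, 1.03 and 1.35 FPKM in SHP099 PMs. The sums of mast cell, eosinophil and endothelial markers, given below, were likewise lowest in the SHP099 libraries. The part of these cells in the level of Itgax was not tested. Without WT replicate 3 there were 3 complement genes passing, Calr (-0.85) and Lrp1 (-0.57) joining Itgax, against 11.1% of all genes. In M-Shp2-/- against WT 0 of the 19 passed by limma, against 0.0873% of all genes. At an unadjusted p under 0.05 there were 0 as well, against 10.5%, and their median log2 fold change was 0.0728, below the 0.147 of all genes. In M-Shp2-/- against SHP099 0 of the 19 passed, against 0.0699% of all genes, and 3 had an unadjusted p under 0.05, against 12.6%, with a median of 0.331 against 0.0172 for all genes. Without M-Shp2-/- replicate 3 there were 8 of the 19 passing, 6 higher and 2 lower, against 19.9% of all genes.

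Of 16 genes that mark C1q-expressing macrophages, 14 were tested. Apoe, at a mean of 5800 FPKM, was the most abundant. In SHP099 against WT PMs 4 of the 14 passed, 3 lower and 1 higher, where 6.96% of all genes passed, 2.41% lower and 4.55% higher. The marker sums of dendritic, mast, eosinophil and endothelial cells were lower in these SHP099 libraries too, and their part in the 4 calls was not tested. The mannose receptor gene Mrc1 fell by 2.18 (adjusted p = 0.00289), from 61.5, 43.8 and 43.5 FPKM in WT to 10.3, 10.1 and 9.79 FPKM in SHP099 PMs. The efferocytosis receptor gene Axl fell by 1.78 (adjusted p = 0.0175) and Nr1h3, which encodes the sterol sensor LXR alpha, fell by 1.10 (adjusted p = 0.0331). Gas6, encoding a ligand of Axl, rose by 0.75 (adjusted p = 0.0325), a call that median-of-ratios scaling lost (0.61, adjusted p = 0.0888; range over the alternatives 0.0216 to 0.222). The count was 2, 1 and 1 without SHP099 replicates 1, 2 and 3, where Mrc1 passed each time and Gas6 and Nr1h3 did not. Axl passed without replicate 1 alone. In M-Shp2-/- against WT 0 of the 14 passed by limma (0.0873% of all genes) and 2 had an unadjusted p under 0.05 (10.5% of all genes), their median log2 fold change being -0.205 against 0.147 for all genes. In M-Shp2-/- against SHP099 0 passed (0.0699% of all genes) and 3 had an unadjusted p under 0.05 (12.6%). Without M-Shp2-/- replicate 3 there were 6 of the 14 passing, 4 higher and 2 lower, against 19.9% of all genes.

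Fibroblast markers differed between libraries of the same group. Of 6 markers 5 averaged at least 1 FPKM, led by Col1a1, and Lum was at most 0.251 FPKM. Their sum was 63.8, 303 and 39.8 FPKM in WT, 135, 51.4 and 586 FPKM in M-Shp2-/-, and 361, 137 and 101 FPKM in SHP099 PMs. The complement regulator Serping1, C1 inhibitor, stood at 2.09, 9.37 and 1.45 FPKM in WT, 2.84, 0.908 and 11.7 FPKM in M-Shp2-/-, and 7.03, 2.59 and 2.19 FPKM in SHP099 PMs, so that in each group it was highest in the library with the highest fibroblast sum. The same held for C1s1, at 13.7, 12.8 and 11.7 FPKM in WT replicate 2, M-Shp2-/- replicate 3 and SHP099 replicate 1, and for Clu, at 117.8, 89.4 and 29.9 FPKM. These genes were chosen after their values were seen. The C1q chains were highest in WT replicate 3, the library with the lowest fibroblast sum, but among M-Shp2-/- PMs in the library with the highest. Of the 8 genes only C2 was highest in every group in the library with the highest fibroblast sum. It stood there at 1.183, 0.735 and 1.355 FPKM in WT, M-Shp2-/- and SHP099 PMs, on few reads. The part of fibroblast RNA in the levels of the 8 genes was not tested.

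B cell markers differed between libraries as well. The 5 markers, led by Ighm, summed to 178 FPKM in M-Shp2-/- replicate 3 and to between 9.9 and 47.0 FPKM in the other 8 libraries. Ighm was most of each sum, at 175 FPKM in that library, and set this order. Apart from Ighm, the B cell list was highest in M-Shp2-/- replicate 1 and lower in all SHP099 libraries than in all others. Neutrophil markers, led by S100a8, summed to between 45.8 and 108 FPKM, the highest sum again in M-Shp2-/- replicate 3. S100a8 was most of each sum, at 95.4 FPKM in that library, and set this order. Apart from S100a8, the rest of the list was highest in M-Shp2-/- replicate 1. That rest was lower in all SHP099 libraries than in all others. The remaining lists were lower. T and NK cell markers, led by Cd3g, summed to at most 5.49 FPKM, and mesothelial markers, led by Wt1, to 13.2 FPKM, in M-Shp2-/- replicate 3. Besides the dendritic cell markers, led by Ccr7, 3 lists had sums lower in all SHP099 libraries than in all others. Mast cell markers, led by Kit and with Fcer1a at 0, summed to 5.62, 4.0 and 4.75 FPKM in WT, 2.48, 3.17 and 0.995 FPKM in M-Shp2-/-, and 0.654, 0.495 and 0.97 FPKM in SHP099 PMs, all M-Shp2-/- libraries being below all WT libraries as well. Replicate 3 of M-Shp2-/- and of SHP099 were nearly equal, and apart from Kit the mast cell list overlapped between M-Shp2-/- and SHP099 PMs. Eosinophil markers, led by Siglecf, summed to 0.421, 0.385 and 0.599 FPKM in WT, 0.996, 0.72 and 0.333 FPKM in M-Shp2-/-, and 0.0549, 0.0228 and 0.0116 FPKM in SHP099 PMs. Endothelial markers, led by Kdr, summed to 5.51, 4.39 and 4.84 FPKM in WT, 5.02, 4.98 and 2.02 FPKM in M-Shp2-/-, and 1.84, 1.42 and 1.35 FPKM in SHP099 PMs. Their part in the results was not tested.

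The cell-type markers Ccr7, Csf1r and Kdr passed in SHP099 against WT PMs and are named here after their values were seen. The dendritic cell marker Ccr7 fell by 1.52 (interval -2.07 to -0.98, adjusted p = 0.0192), from 5.04, 2.83 and 2.97 FPKM in WT to 0.714, 0.305 and 0.727 FPKM in SHP099 PMs, and stood at 5.8, 3.92 and 2.01 FPKM in M-Shp2-/- PMs. The macrophage marker Csf1r rose by 1.38 (adjusted p = 0.0222) and the endothelial marker Kdr fell by 1.08 (adjusted p = 0.0406). These 3 calls were lost without any 1 of the SHP099 replicates, and also with no filter on low FPKM. That of Kdr was lost as well without WT replicate 1 or 3 and with 9 libraries in the fit, and that of Csf1r with median-of-ratios scaling. Over the alternatives the adjusted p ranged from 0.0145 to 0.107 for Ccr7, from 0.00394 to 0.116 for Csf1r and from 0.0241 to 0.164 for Kdr.

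Outside the complement lists, the genes most like each of the 7 were found by Pearson correlation of log2(FPKM + 1) over the 9 libraries, as a description that includes differences between groups. C1qa was most like Ttc39c (r = 0.986), Cd14 (0.978) and Tab2 (0.976). C1qb was most like Ttc39c (0.983), Tnfaip3 (0.972) and Tab2 (0.968), and C1qc like Tnfaip3 (0.976), Ttc39c (0.975) and Tab2 (0.967). The chains thus shared Ttc39c and Tab2 among their closest genes. Cfp was most like Mdfic (0.981), Pltp (0.976) and Irs2 (0.972), of which Pltp is among the genes that mark C1q-expressing macrophages. Pltp overlaps Ctsa on the opposite strand, and strand use in counting is not given in the sources used here. Cfb was most like Gnl1 (0.977), Ccng2 (0.974) and Dennd5a (0.973). C3 had lower values, with Glrx (0.927), Slc31a1 (0.921) and Adgb (0.917), as did C4b, with Mgat4a (0.903), Adgb (0.896) and Il18bp (0.895).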

How the data were processed

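PMs were sequenced as paired-end poly-A libraries. According to the submitters' processing notes CASAVA 1.8, HISAT2 2.0.4 and HTSeq 0.9.1 were used, and the authors deposited FPKM per Ensembl gene. The tool that made the FPKM, the annotation, the strand setting and the counting of shared reads are not given in the sources used here. Symbols came from GENCODE M21 (353 of 54059 genes unmatched). Multiplying by the mean transcript length gave whole reads (within 0.05) for 96.3% to 96.7% of values of up to 50 reads, which returned the depth. For SHP099 replicate 2 the search first gave a depth at which 98.3% of the reads were even (42.2% to 43.2% elsewhere), and 0.5 of that depth was used. A second deposited table of gene spans served only to check the build: 91.8% of its matched genes had the same start and end.

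Genes averaging 1 FPKM or more across all libraries were fitted as log2(FPKM + 1) with limma 3.58.1 (lmFit, eBayes with trend, R 4.3.3), 6 libraries per fit without covariates, with Benjamini-Hochberg adjustment over all 11450 genes. The steps were tested on simulated data. C1q shares were tested by exact permutation with Benjamini-Hochberg adjustment over 9 tests (scipy 1.17.1). Alternatives were other pseudocounts (0.1, 5), filters, scalings, variance priors, samples, a replicate block, voom on recovered reads and leaving out each library. Named genes were the 8 genes, listed genes that passed at 0.05, the 5 most abundant listed genes, genes overlapping the 8, and the 3 genes most like each. The members and lists were chosen with earlier results of these data known.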

Additional observations from a re-analysis of the deposited data

How the results depend on the processing

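Of 491 alternative values of 29 fold changes, 439 kept their direction and side of the threshold, 5 turned sign, 6 newly passed and 41 no longer passed; the cause was not tested. Those that turned were C4b in SHP099 against WT without WT replicate 1 (-0.28) and without SHP099 replicate 3 (-0.16; range with 1 library left out -0.28 to 0.54), Cfp there without WT replicate 1 (-0.22; range -0.22 to 0.62), and C3 in M-Shp2-/- against SHP099 without M-Shp2-/- replicate 2 (0.029) and without SHP099 replicate 3 (0.047; range -0.27 to 0.047).

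The count of the 7 genes passing was 0 under every scaling, filter, pseudocount and variance prior. At an unadjusted p under 0.05 it was 1 in each comparison with the settings of the report, and over the alternatives without a replicate block 0 to 4 in M-Shp2-/- against WT, 0 to 3 in SHP099 against WT and 1 to 6 in M-Shp2-/- against SHP099. At the adjusted threshold, leaving out 1 library gave 0 in M-Shp2-/- against WT, 0 to 1 in SHP099 against WT and 0 to 5 in M-Shp2-/- against SHP099. Of the other complement genes 1 passed in SHP099 against WT, 0 without a filter, with 9 libraries in the fit or by the thresholds of the study's methods, and 0 to 3 with 1 library left out; against SHP099, M-Shp2-/- gave 0 to 8. Of the genes that mark C1q-expressing macrophages 4 passed in SHP099 against WT, 1 without a filter or by the thresholds of the study's methods, 2 with 9 libraries in the fit, and 1 to 4 with 1 library left out; M-Shp2-/- against SHP099 gave 0 to 6. The alternatives printed here for both lists were chosen after seeing the data, except the thresholds of the study's methods for the other complement genes. The place of C3 in WT PMs moved from 1 to 4 per longest transcript, also chosen after seeing the data, by the lengths used.

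Replicate numbers did not pair the samples: deviations of same-numbered WT and M-Shp2-/- libraries correlated at 0.492, -0.431 and 0.185, those of WT and SHP099 at -0.041, -0.09 and 0.454, and those of M-Shp2-/- and SHP099 at -0.014, 0.183 and -0.047. With the replicate block 0 of the 7 genes passed in each comparison, 1 other complement gene in SHP099 against WT, and 2 of the genes that mark C1q-expressing macrophages. In SHP099 against WT 4 of the 7 genes had an unadjusted p under 0.05 with it, and C1qa came to an adjusted p of 0.05 without passing. Of the C1q shares 0 of 9 differences passed with shares of recovered reads too. C2 rested on 20 to 72 reads per library, and whether depth or the spread between libraries limited its comparison was not tested.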
